A study of Mus musculus with 4 samples.

Results

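Non-cycling, collagen-expressing cells in which *Serpinb2*, *Ereg* and other genes of inflammation and low oxygen were detected together made up 2695 of 24489 cell barcodes from mouse melanoma stroma. The cells were chosen by their own UMI counts, where a UMI marks 1 captured transcript. A cell was kept with 500 to 6000 genes, at most 10% mitochondrial UMIs, no UMI of *Ptprc* (a leukocyte surface phosphatase) or *Pax3* (a melanocyte lineage factor), and at least 3 UMIs of *Col1a1*, *Col1a2* and *Col3a1* together. Of the 21098 cells gated in this way, a member had at least 5 of *Serpinb2*, *Ereg*, *Lcn2*, *Ptgs2*, *Sema3a*, *Nos2*, *Apln*, *Hilpda*, *Slc7a2* and *AA467197* detected. It also had at most 1 of 8 cell cycle genes (*Mki67*, *Top2a*, *Cdk1*, *Birc5*, *Ube2c*, *Prc1*, *Tpx2*, *Ccna2*) and at most 2 of 6 matrix fibroblast genes (*Mfap4*, *Smim41*, *Cilp*, *Lpl*, *Sfrp1*, *Svep1*). The members were thus selected on the measured values of 29 genes, whose levels are given below only as a description.

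Serpinb2 is an intracellular inhibitor of plasminogen activators and epiregulin (Ereg) a ligand of the EGF receptor. In fibroblasts, both are induced by inflammatory cytokines, as are the prostaglandin synthase Ptgs2 and the nitric oxide synthase Nos2. Low oxygen stabilises the hypoxia-inducible transcription factors, which raise genes of glucose uptake, glycolysis, acid export and vessel growth, among them the vascular peptide apelin (Apln) and the lipid droplet protein Hilpda.

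All cells came from intraperitoneal B16-F1-OVA tumors, a melanoma line that carries ovalbumin, taken 14 days after 400000 tumor cells in 200 uL were injected. The hosts were Cxcl13-cre-tdTomato X R26R-eGFPflox mice (host strain C57Bl/6). The *Cxcl13* promoter drove both tdTomato and the Cre recombinase, so tdTomato marked current promoter activity and eGFP a cell in which Cre had acted at any time. CD45 neg CD31 neg podoplanin-high cells were sorted into 4 populations, tdTomato neg eGFP neg, tdTomato neg eGFP+, tdTomato+ eGFP neg and tdTomato+ eGFP+, and each gave 1 library. By their labels the libraries differ only in the sorted reporters. Mice of both sexes were used, and the number of mice behind a library and their age are not given in the sources used here. Values of 4 libraries are given in this order throughout.

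The libraries held 90259852, 63310850, 52046896 and 10071954 UMIs over 11745, 6461, 5299 and 984 barcodes. Members had a median of 10383 UMIs and 2859 genes. Their comparison group was the 8085 gated cells that met every other condition but had 0 to 4 of the 10 genes, with a median of 4056 UMIs and 1623 genes. Detection of a gene depends on depth, so the rule took deeper cells, and depth-matched values stand beside the main results. Median mitochondrial shares were 0.657% in members and 0.630% in comparison cells. Between libraries, 57 barcode sequences occurred more than once, 3 of them in members. No doublets were removed. The doublet caller Scrublet marked 8 of 22691 cells (0.0353%) by its own threshold, and why so few were marked was not tested. As an alternative, removal of its highest-scoring cells took 94 members and 305 comparison cells. Per library it took 7.45%, 4.49%, 2.41% and 0% of members and 5.47%, 2.19%, 1.86% and 0% of comparison cells. Members were thus marked more often in the 3 libraries where either group lost cells. Over all libraries it took 3.49% of members and 3.77% of comparison cells.

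Members were most frequent among tdTomato+ cells. They were 376 of 9866 gated cells in the tdTomato neg eGFP neg library (3.81%, 95% interval 3.44 to 4.21), 757 of 5745 in tdTomato neg eGFP+ (13.2%, 12.3 to 14.1), 1327 of 4634 in tdTomato+ eGFP neg (28.6%, 27.3 to 30.0) and 235 of 853 in tdTomato+ eGFP+ (27.5%, 24.6 to 30.7). Both tdTomato+ libraries lay above both tdTomato neg libraries, and their own intervals overlapped. These are exact Clopper-Pearson intervals for counting error only, and with 1 library per population a difference between populations has no replicate check. After each cell was thinned to 2000 UMIs, which left out 2295 shallower gated cells, the shares were 1.23%, 4.11%, 10.7% and 10.1%, in the same order. Among non-cycling, matrix-low cells alone, members made up 8.17%, 24.9%, 50.7% and 45.5%. Over all gated cells the share was 12.8% (12.3 to 13.2). It was 8.31% without the tdTomato+ eGFP neg library and 20.6% once tdTomato neg eGFP neg cells were set aside, so the pooled share reflects how many cells each library held.

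**Figure D1:**
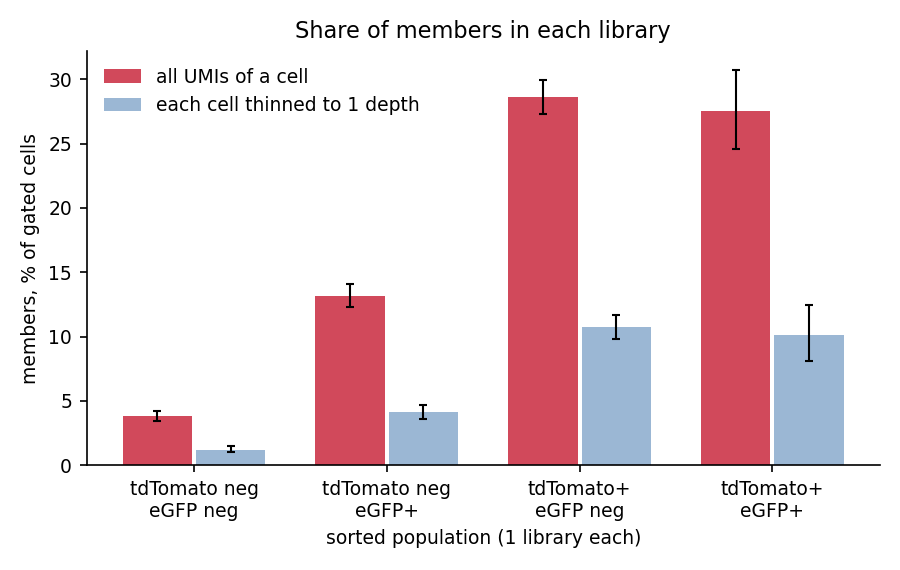
Members as a percentage of gated cells in each of the 4 libraries, with all UMIs of a cell (red) and after thinning to 2000 UMIs (blue), and exact 95% binomial intervals as bars. Both tdTomato+ libraries reach 27.5% to 28.6%, against 3.81% and 13.2% in the tdTomato neg libraries, and thinning lowers all 4 shares.

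The 10 genes of the rule describe the cells and support nothing further. Levels are the summed UMIs of all cells in a group, given per 1000000 UMIs of that group (counts per 1000000, CPM). *Serpinb2* was the most abundant, at 3549.9, 3267, 3368 and 3237 CPM in members and 724, 879, 1138 and 1341 CPM in comparison cells. *Ereg* stood at 286, 341, 448 and 457 CPM against 31.8, 67.8, 127 and 172 CPM. In comparison cells both genes were lowest in the tdTomato neg eGFP neg and highest in the tdTomato+ eGFP+ library, whereas *Serpinb2* in members was nearly level. *Lcn2*, an iron-siderophore binding protein, stood at 777, 744, 1349 and 1679 CPM in members and 268, 174, 589 and 475 CPM in comparison cells, and *Ptgs2* at 362, 379, 361 and 352 CPM and 98.6, 76.2, 102 and 132 CPM. *Nos2* differed most among the 10, with 148, 211, 208 and 131 CPM in members and 6.77, 11.4, 17.8 and 25.5 CPM in comparison cells. *Apln* lay at 95.1, 98.8, 153 and 126 CPM in members, *Hilpda* at 175, 191, 157 and 104 CPM, the cationic amino acid transporter *Slc7a2* at 55.6, 75.3, 125 and 89.5 CPM, the secreted guidance cue *Sema3a* at 122, 168, 198 and 199.9 CPM and *AA467197* at 171, 198, 259 and 176 CPM. Each of the 10 was higher in members in all 4 libraries, which the choice of cells fixes.

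No single gene of the 5 below was detected in every member. A *Serpinb2* UMI was found in 96.2% of members, *Lcn2* in 84.3%, *Ereg* in 75.7%, *Ptgs2* in 72.8% and *Nos2* in 47.6%. Thinned to 2000 UMIs, the shares were 86.1%, 57.7%, 43.4%, 40.6% and 24.5%. The 472 cells with a *Pax3* UMI, which stand for tumor cells and should lack most of these genes, gave thinned shares of 12.9%, 5.59%, 2.80%, 3.23% and 0.645%, at a median of 20006 UMIs before thinning. The 428 cells with a *Ptprc* UMI (median 8779.5 UMIs) gave 37.5%, 22.5%, 15.3%, 22.8% and 9.12%. *Hilpda*, thinned, was in 22.6% of members (21.1 to 24.3), 13.3% of *Pax3* cells and 19.0% of *Ptprc* cells (15.2 to 23.4), so that members and *Ptprc* cells overlapped. Since detection of these genes chose the members, their higher shares show nothing about free RNA.

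Cells just inside the threshold lay close to those just outside. Among non-cycling, matrix-low cells 971 had 4 of the 10 genes and 827 had 5, which is 30.7% of members, and their median depths were 8192 and 8931 UMIs. *Serpinb2* stood at 1870.2 CPM with 4 genes and 2353 CPM with 5, and the summed hypoxia genes described below at 2746 and 3162 CPM. Cells with 5 genes were higher in both, at a slightly greater depth.

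Outside the 29 rule genes, 9497 genes had a mean of at least 5 CPM and were compared within each library. A gene was called higher or lower where the mean log2 fold of members over comparison cells, on CPM plus 1, was at least 1 or at most -1 with the same sign in all 4 libraries. By this rule 107 genes (1.13%) were higher and 167 (1.76%) lower. No test was run, since the members were chosen from the same cells. The median fold over all genes compared was -0.14, which is the level against which the medians of gene lists are read. With comparison cells weighted to the depth of members, 143 genes were higher and 133 lower, of which 102 and 104 were called in both, and higher genes were 51.8% of calls in place of 39.1%. With each library centred on its abundant genes, they were 49.8%, as the mean over cells of their own CPM 32.8%, and against all other gated cells 14.8% (77 higher and 442 lower, of which 60 and 96 were called in both). At a pseudocount of 5 CPM, 71 were higher and 88 lower.

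The largest increase outside the rule was in *Calb2*, which encodes the calcium-binding protein calretinin. It stood at 19.3, 31.7, 40.5 and 43.5 CPM in members and 0.487, 0.905, 2.63 and 5.75 CPM in comparison cells, a mean log2 fold of 3.53 (4.10 at matched depth). *Calb2* was thus low in comparison cells of every library and higher in members of each. In the tdTomato neg eGFP neg library the exact Poisson 95% intervals were 15.4 to 23.9 CPM in members and 0.223 to 0.925 CPM in comparison cells. They cover counting error only. *Calb2* was chosen by its fold, so intervals that do not overlap add nothing to it. A *Calb2* UMI was found in 8.57% of members and 0.346% of comparison cells, or 3.69% and 0.257% once thinned, against 0.430% of *Pax3* cells and 1.07% of *Ptprc* cells. *Tafa2*, a secreted chemokine-like protein, followed at 2.72, then *Sprr2e* (cornified envelope) at 2.53, the costimulatory receptor *Tnfrsf9* at 2.44, uridine phosphorylase *Upp1* at 2.29, the chromatin protein *Hmga2* at 2.27, the carbonic anhydrases *Car12* and *Car4* at 2.26 and 2.20, the histone deacetylase *Hdac9* at 2.23 and *Inhba* at 2.05. The filter takes the mean of both groups, and 7 of these 10 genes were under 5 CPM in comparison cells, as were 28 of all 107 higher genes, so that their level in members carried them through it. Likewise 63 of the 167 lower genes were under 5 CPM in members. As means over the libraries, 9 of these 10 stood below 40 CPM in members, and *Inhba* at 220.1 CPM.

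*Sprr2e* was uneven across populations, at 72.1, 34.1, 5.26 and 7.91 CPM in members and 6.17, 3.62, 2.88 and 0 CPM in comparison cells. It was high in members of both tdTomato neg libraries and low in members of both tdTomato+ libraries, and the count of 0 allows a level of up to 1.92 CPM (3 UMIs). The 10 genes with the largest decreases were *Krt18* (-2.88), *Muc16* (-2.69), *Lama2* (-2.63), *Pi16* (-2.63), *Dpp4* (-2.61), *Gsta4* (-2.59), *Ccl11* (-2.55), *Igfbp5* (-2.48), *Inmt* (-2.48) and *Aqp5* (-2.45). *Krt18* and *Muc16* are markers of mesothelium, the lining of the body cavities, and *Pi16* and *Dpp4* of adventitial fibroblasts. *Gsta4* was found in 42.4% of thinned *Pax3* cells, 5.98% of comparison cells and 0.597% of members, and the part of tumor cell RNA was not tested. In cells with Y-linked UMIs alone *Inmt* (0.26) and *Pi16* (0.061) changed direction. At matched depth *Inmt* was at -0.57 and no longer past the threshold, and the other 9 remained between -3.01 and -1.39.

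Hypoxia genes were higher as a group. Of 24 listed genes outside the rule, 6 were called higher and none lower, 19 were above 0 in every library, and the median fold was 0.77 (0.75 at matched depth) against -0.14 over all genes. The summed level was 4187, 4405, 3977 and 3469 CPM in members and 2153, 2287, 2189.8 and 2353 CPM in comparison cells. Members of all 4 libraries thus lay above all comparison cells, least so in the tdTomato+ eGFP+ library. *Ero1a*, an oxidase of the endoplasmic reticulum, stood at 473, 464, 366 and 241 CPM against 138, 139.6, 122 and 118 CPM, a fold of 1.53. *Car9*, which acidifies the space outside the cell, stood at 55.8, 39.2, 30.8 and 19.1 CPM against 19.5, 17.5, 10.0 and 6.38 CPM (1.39). In members both were highest in the tdTomato neg eGFP neg and lowest in the tdTomato+ eGFP+ library. *Car12* (2.26, under 5 CPM in comparison cells), the stress response gene *Ndrg1* (1.30), the mitophagy receptor *Bnip3* (1.23) and the vessel growth factor *Vegfa* (1.09) completed the 6. *Higd1a*, a mitochondrial protein, was the most abundant at a mean of 507 CPM and had a fold of 0.65. The transcription factor gene *Hif1a*, whose protein is set mainly by its stability, was at 0.78, its partner *Arnt* at -0.20, below 0 in every library.

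Glycolysis moved less, but as evenly. Of 19 genes compared, 2 were higher and none lower, 18 were above 0 in every library, and the median was 0.56 (0.67 at matched depth). By comparison, 11.8% of all genes were above 0 in every library. The glucose importer *Slc2a1* stood at 158, 187, 168 and 112 CPM in members and 48.7, 63.9, 63.1 and 49.2 CPM in comparison cells (1.45), and the lactate exporter *Slc16a3* at 183, 197, 171 and 159 CPM and 72.1, 105, 73.0 and 91.3 CPM (1.06). Entry of glucose and exit of lactate were thus the called steps, although *Slc16a3* was at 0.97 without the tdTomato neg eGFP neg library. *Gapdh*, the most abundant gene of the list, had a fold of 0.33. The symbol *Aldoa* is carried by more than 1 feature and was not analysed here.

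**Figure D2:**
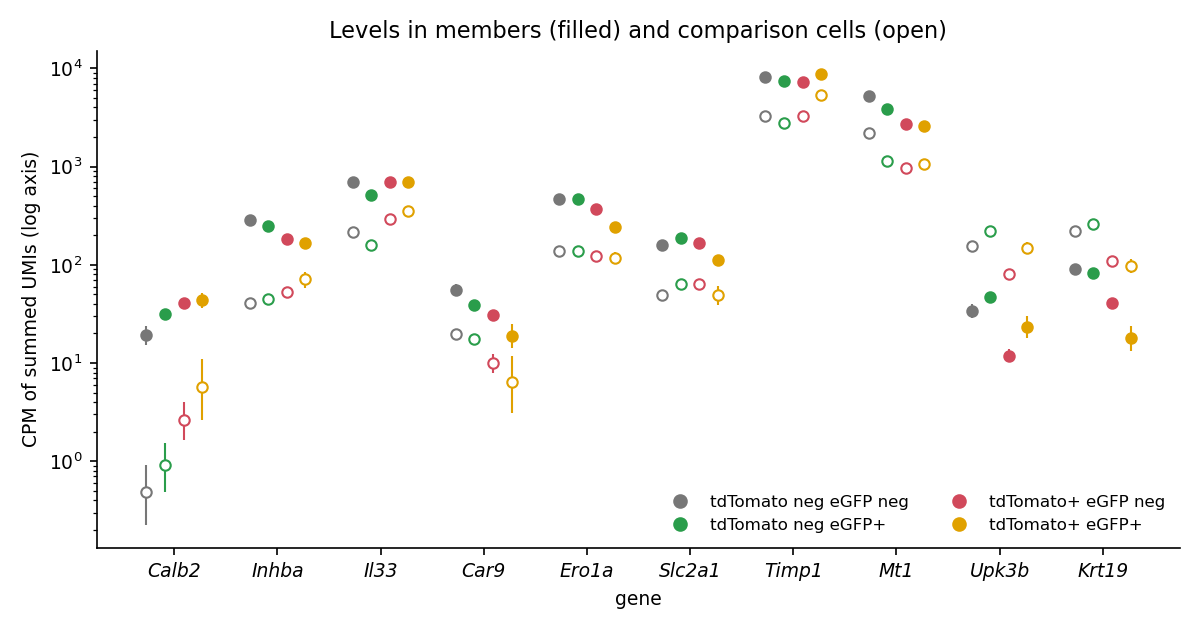
CPM of 10 genes outside the rule (log axis) in members (filled) and comparison cells (open) of each library (colours), with exact 95% Poisson intervals as bars, shown where larger than the symbol. For each gene the 4 members' values lie on 1 side of their own library's comparison cells, above for 8 genes and below for the mesothelial genes *Upk3b* and *Krt19*.

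Lists of inflammation outside the rule held few called genes. None of 18 NF-kB feedback and target genes was called in either direction, with a median of -0.03, and their summed level was 5198, 5546, 5353 and 5359.6 CPM in members and 4042, 4899, 4893 and 4499 CPM in comparison cells. *Ier3*, an early response gene, was the most abundant at a mean of 1641 CPM with a fold of 0.51, and the NF-kB inhibitor gene *Nfkbia* was at 0.02. These genes were thus abundant in both groups of cells, with a sum that was higher in members of each library. Of 17 chemokines none was higher and 1 lower, with a median of 0.08. The monocyte attractant *Ccl2* stood at 2969, 3455, 4673 and 4044 CPM in members and 2398, 3338, 4386 and 3806 CPM in comparison cells, close in 3 libraries and higher in members of the tdTomato neg eGFP neg library. The eosinophil attractant *Ccl11* stood at 25.1, 4.91, 6.27 and 8.27 CPM against 269, 28.7, 49.1 and 29.4 CPM. None of 20 cytokine receptor genes was called, with a median of 0.12, the most abundant being *Il1r1* at a mean of 580.4 CPM (0.65).

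Single cytokines did differ. Of 13 compared, 2 were higher and none lower, with a list median of -0.03 (0.28 at matched depth). *Inhba*, the subunit of activin A, stood at 284, 247, 184 and 165 CPM in members and 41.0, 44.4, 53.1 and 70.9 CPM in comparison cells. In members it was highest in the tdTomato neg eGFP neg and lowest in the tdTomato+ eGFP+ library, and in comparison cells the reverse. The alarmin *Il33* stood at 704, 511, 699.99 and 701 CPM against 215, 159, 291 and 355 CPM (1.41), higher in members of each library. *Il6*, chosen here after its values were seen, stood at 146, 218, 265 and 194 CPM against 104, 94.4, 145 and 132 CPM (0.78) and was below the threshold. In the list of acute phase and innate defence genes, 3 of 15 were higher and 2 lower, with a median of 0.15. The metallothioneins *Mt1* and *Mt2*, which bind zinc and copper, had folds of 1.44 and 1.38, and the zinc importer *Slc39a14* 1.05. *Mt1* reached 5197, 3881, 2686 and 2568 CPM in members against 2195, 1145, 964 and 1070 CPM. The serum amyloid *Saa3* was the most abundant, at 16636, 19782, 22689 and 24859 CPM in members and 5707, 9879.7, 15953 and 15247 CPM in comparison cells (0.94). The lipopolysaccharide-binding protein *Lbp* (-1.42) and the pentraxin *Ptx3* (-1.31) were lower, though short of the threshold at matched depth (-0.78 and -0.63) and in the folds that leave out the tdTomato neg eGFP neg library (-0.89 and -0.96, respectively). In cells with Y-linked UMIs alone *Lbp* changed direction, to 0.73.

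The cells were sought under the label hypoxic inflammatory *Serpinb2* *Ereg* fibroblasts. For the word hypoxic, 6 of 24 listed genes outside the rule were higher, though *Apln* and *Hilpda* of the rule are themselves induced by low oxygen, so these genes are no independent check. For the word inflammatory, the higher listed genes were the cytokines *Inhba* and *Il33* and 3 genes of the acute phase list, *Mt1*, *Mt2* and *Slc39a14*. Lower were *Lbp* and *Ptx3* of the acute phase list and the chemokine *Ccl11*. Of 18 NF-kB genes and 17 chemokines 0 were higher, which at 1.13% higher among all genes says little, and their medians of -0.03 and 0.08 lay near the -0.14 of all genes. These lists thus neither bear out nor contradict that word.

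Around the enzymes and ligands of the rule, partner genes differed 1 at a time. In the EGF family and its feedback genes, 1 of 15 was higher with a median of 0.12: amphiregulin (*Areg*), like *Ereg* a ligand of the EGF receptor, stood at 33.7, 24.9, 26.2 and 15.1 CPM in members and 5.09, 14.5, 9.03 and 3.83 CPM in comparison cells (1.61). The receptor inhibitor *Errfi1* was the most abundant of the list and reached 0.94. In the prostanoid pathway none of 13 was higher and 1 lower, with a median of -0.18. That gene was the prostaglandin D synthase *Ptgds* (-1.70). It was found in 91.6% of thinned *Pax3* cells, 4.198% of comparison cells and 1.60% of members, and the part of tumor cell RNA in this fold was not tested. In the same list prostacyclin synthase *Ptgis* was the most abundant at a mean of 957 CPM (-0.25). In arginine, nitric oxide and polyamine metabolism 1 of 12 was higher with a median of 0.03. *Ddah1*, which degrades inhibitors of nitric oxide synthases, stood at 33.3, 32.6, 49.3 and 51.1 CPM against 11.6, 11.5, 19.4 and 30.0 CPM (1.23), and *Sat1* of polyamine breakdown was the most abundant (0.36).

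Of 15 genes of the plasminogen system and matrix proteolysis 3 were higher and 1 lower, with a median of 0.18. The metalloproteinase inhibitor *Timp1*, the most abundant gene of the list, stood at 8165, 7383, 7250.1 and 8796 CPM in members and 3249, 2803, 3266 and 5303 CPM in comparison cells (1.15). It was higher in members of each library. Stromelysin *Mmp3* was at 1.03, but at 0.99 at matched depth and 0.78 without the tdTomato neg eGFP+ library. The thrombin inhibitor *Serpine2* was lower at -1.66 (-0.93 at matched depth). Among 16 vascular ligands and semaphorins 1 was higher and 2 lower, with a median of -0.33 (-0.09 at matched depth). Placental growth factor *Pgf* stood at 60.0, 56.9, 28.1 and 9.35 CPM in members and 14.3, 13.6, 6.52 and 7.66 CPM in comparison cells (1.55), and in the tdTomato+ eGFP+ library the groups were close. *Sema3d* (-2.10) and *Sema3c* (-1.41) were lower, unlike *Sema3a* of the rule, and *Thbs1* was the most abundant at a mean of 732 CPM (0.87).

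Among matrix genes outside the rule, 2 of 15 hyaluronan and matricellular genes were higher and none lower, with a median of 0.44. *Tnfaip6*, which links chains to hyaluronan, stood at 593, 581, 550.4 and 653 CPM in members and 384, 218, 272 and 255 CPM in comparison cells (1.10). The collagen crosslinking enzyme *Lox* was at 1.03. Without the tdTomato neg eGFP+ library *Tnfaip6* (0.998) and *Lox* (0.95) fell short of the threshold, and without the tdTomato+ eGFP neg library *Lox* was at 0.99. In this list *Sparc* was the most abundant at a mean of 9273 CPM (0.23). Of 13 collagen genes 1 was higher, *Col12a1* of fibril surfaces, at 165, 233, 294 and 289 CPM against 55.1, 77.0, 128 and 147 CPM (1.33). The median of the 13 was -0.10, near that of all genes, and *Col5a2* was the most abundant (0.16). None of 6 contractile genes was called, with a median of -0.03, and *Acta2* of smooth muscle actin had a fold of -0.10.

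Among the listed genes of antigen presentation and the interferon response none was called. Outside the lists, the class I gene *H2-Q10* was called higher, at a mean of 10.6 CPM in members and 3.26 CPM in comparison cells (1.43), and is named here after its value was seen. None of 8 MHC class II genes was called, with a median of -0.38, and their summed level was 3421, 3188, 3691 and 3305 CPM in members and 3812, 4635, 4866 and 4999 CPM in comparison cells. Against all other gated cells the median was -0.04. The invariant chain *Cd74* was the most abundant (-0.48). None of 13 MHC class I genes was called, with a median of -0.23, near that of all genes, and a sum that was higher in members of the tdTomato neg eGFP neg library (9532 against 9383 CPM) and lower in those of the other 3, led in abundance by *B2m* (0.13). None of 12 interferon-stimulated genes was called, with a median of -0.26, and 9 of the 12 were below 0 in every library, as were 39.6% of all genes. Against all other gated cells the interferon list changed sign, to a median of 0.08. *Ifitm3*, which blocks viral entry, was the most abundant (-0.18). Of 9 genes of lymphoid stroma 2 were higher, with a median of 0.04 (0.37 at matched depth, 0.03 to 0.19 with a library left out). The osteoclast cytokine *Tnfsf11* stood at 14.9, 15.1, 19.2 and 28.8 CPM in members and 2.76, 5.64, 8.65 and 14.0 CPM in comparison cells (1.35). Cholesterol hydroxylase *Ch25h*, which makes a precursor of oxysterol attractants, stood at 89.1, 103, 137 and 109 CPM against 31.9, 42.5, 80.1 and 46.0 CPM (1.17). The adhesion molecule *Vcam1* was the most abundant of the list (0.04), and none of 6 immune checkpoint ligands was called (median 0.02, most abundant *Nectin2*, -0.11).

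Genes that tissue handling can induce were not higher in members as a group. None of 15 immediate early and heat shock genes was called, with a median of -0.12 and a summed level of 7069, 7958, 8399.7 and 7836 CPM in members and 8369, 8359.5, 8876 and 8009.7 CPM in comparison cells. *Fos* was the most abundant (-0.08). Among 11 genes of the integrated stress response and redox defence 1 was higher, the mTOR inhibitor *Ddit4* (1.03, or 0.95 without the tdTomato neg eGFP neg library), which low oxygen also raises. The median was 0.07, and the chaperone *Hspa5* was the most abundant (0.07).

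**Figure D3:**
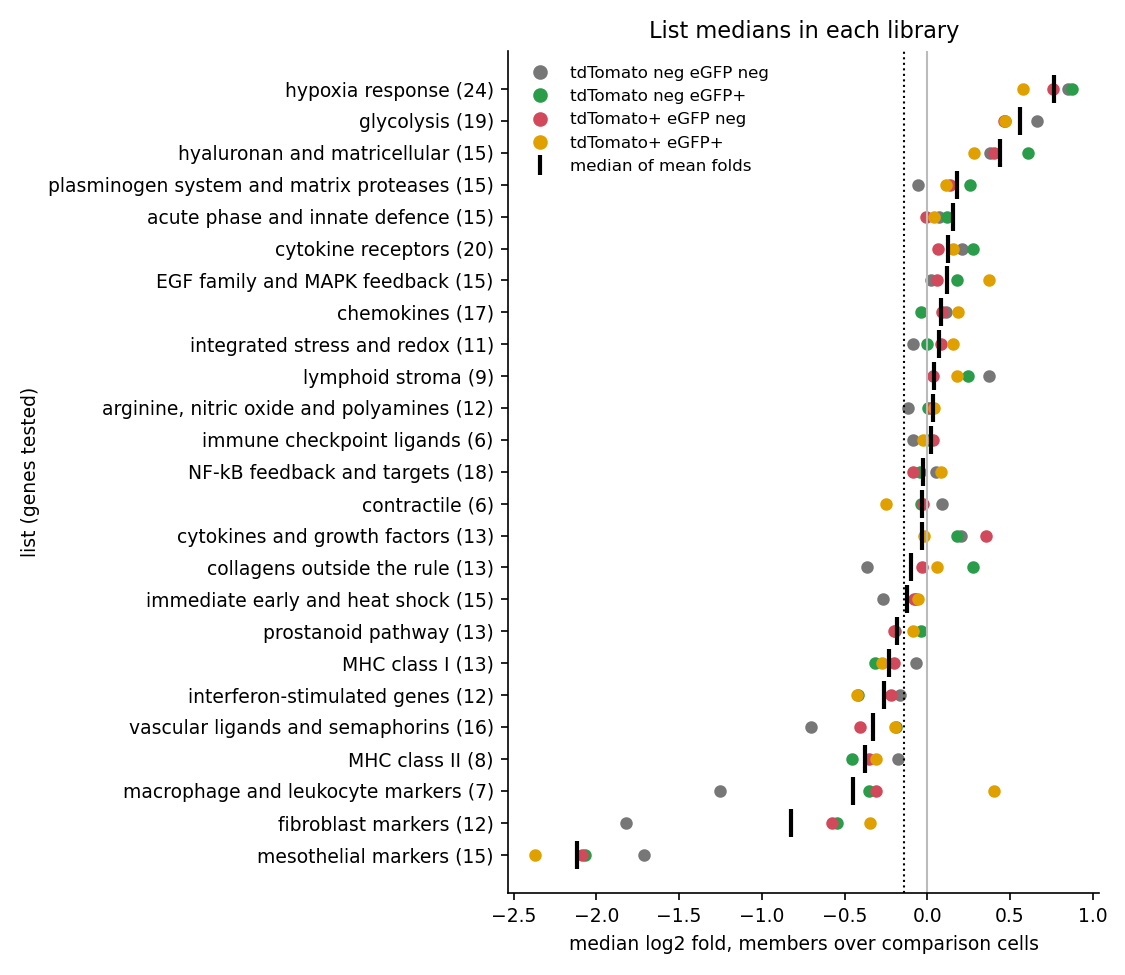
Median log2 fold of each list of genes outside the rule in each library (colours), with the median of the mean folds as a black bar, the number of genes compared in brackets and the median of all genes (-0.14) as a dotted line. Hypoxia response (0.77) and glycolysis (0.56) lie highest and mesothelial markers (-2.12) lowest.

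Cell identity was read from marker lists. Of 15 mesothelial markers 14 were lower and none higher, with a median of -2.12 (-2.25 at matched depth). Their summed level was 827, 741, 453 and 434 CPM in members and 2273, 2512, 1156 and 1398 CPM in comparison cells, lower in members of every library. *Upk3b*, a uroplakin, stood at 34.2, 46.7, 11.9 and 23.4 CPM against 156, 218, 80.7 and 149 CPM (-2.41), *Lrrn4* at -2.30 and *Krt19* at -1.67. Within the list the exception was the transcription factor *Wt1* (-0.14), the most abundant marker of the list in members. *Wt1* stood at 136, 194, 208 and 189.8 CPM in members and 136, 249.6, 257 and 177 CPM in comparison cells. *Calb2* (calretinin), also a marker of mesothelium, was not in the list and was higher in members (3.53). Comparison cells therefore held cells with mesothelial RNA, and the part of this mixture in the folds of other genes was not tested.

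Fibroblast markers were split. The proteoglycan *Dcn* stood at 3454, 3637, 4546 and 4285 CPM in members and 4396, 3223, 4224 and 4257 CPM in comparison cells (-0.01), and the growth factor receptor *Pdgfra* at 239.8, 307, 372 and 357 and 188, 249, 367 and 324 CPM (0.20). Both were present at like levels in both groups. Of 12 markers 5 were lower and none higher, with a median of -0.82 (-0.32 at matched depth): *Pi16*, *Clec3b* (-2.14), *Gsn* (-1.83), *Lum* (-1.52) and *Col14a1* (-1.05). The tdTomato neg eGFP neg library weighed on this, with list medians by library of -1.82, -0.54, -0.58 and -0.35. At matched depth *Gsn* was at -0.63, *Lum* at -0.88 and *Col14a1* at -0.24, short of the threshold. The list median was -0.39 when that library was left out. In that library *Gsn* stood at 1406 CPM in comparison cells, against 139 to 263 CPM in the other libraries. Only 1 of the 12 was above 0 in every library. *Dcn* and *Pdgfra* were thus present in members, while 5 of the 12 were called lower, and the collagens of the rule say nothing here since they chose the cells. The cells are therefore called by their leading genes, *Serpinb2* and *Ereg*.

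Lists of markers of other cell types summed to at most 104 CPM in members. Of markers of B or plasma cells they held only *Cd79a*, in the leukocyte list. Of 14 leukocyte markers 7 were compared and none called, with a median of -0.45. Their summed level was 83.5, 79.2, 104 and 51.1 CPM in members and 138, 91.8, 129 and 51.7 CPM in comparison cells, with *Csf1r* the most abundant at a mean of 35.3 CPM. None of 8 neutrophil markers was compared, as each had a mean under 5 CPM. Their sum was 1.16, 3.79, 2.38 and 5.75 CPM in members, with *Mmp8* the most abundant at 1.15 CPM and *S100a9*, *Cxcr2*, *Retnlg* and *Ngp* at 0. Of 8 melanoma markers 4 were compared and 2 lower, *Dct* (-1.84) and *Mlana* (-1.74), with a median of -1.48, or -0.98 without the tdTomato+ eGFP neg library. Their sum was 91.4, 27.6, 37.1 and 29.8 CPM in members and 329, 43.3, 116 and 27.5 CPM in comparison cells, and *Mitf* was the most abundant at 17.4 CPM. None of 7 endothelial markers was compared (sum 6.74, 6.13, 3.68 and 2.88 CPM, most abundant *Egfl7*, 2.14 CPM, *Cldn5* at 0), nor any of 5 pericyte markers (sum 7.67, 5.13, 7.57 and 11.1 CPM, most abundant *Kcnj8*, 4.38 CPM). Among 5 epithelial markers only *Krt14* was compared (-1.44, not called), the sum was 19.8, 2.01, 0.144 and 0.360 CPM, and *Krt5* and *Esrp1* were at 0. The part of such cells in the results was not tested.

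A comparison with the 2144 non-cycling, matrix-high fibroblasts (at least 3 of the 6 matrix genes) placed the members differently. Of 9523 genes compared here 410 were higher and 596 lower, with a median fold of -0.13. Over the 9497 genes compared above the median was -0.10. Of the genes called against the first comparison cells, 52 were higher and 68 lower in both. Hypoxia and glycolysis kept their direction, with medians of 0.95 and 1.30, and *Calb2* (3.81), *Hmga2* (3.77) and *Inhba* (1.29) stayed higher. Mesothelial markers reversed, to a median of 1.66, whereas fibroblast markers were at -2.60 and collagens at -1.12. The matrix-high cells were chosen by matrix fibroblast genes, and the part of that choice in these medians was not tested. The matrix-high cells numbered 1649, 174, 289 and 32, so the tdTomato+ eGFP+ library adds few. As a group the listed mesothelial markers were thus lower in members than in their comparison cells and higher than in matrix-high fibroblasts, with *Krt19* at 3.04 and *Upk3b* at 1.66. Interferon-stimulated genes (0.89) and MHC class II genes (0.69) were above 0 here, and *Timp1*, *Mmp3*, *Lox* and *Tnfaip6*, higher against the first comparison cells, were at -0.05, -0.24, -0.43 and -0.49.

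Members varied with the number of the 10 genes they held. Cells with exactly 5, exactly 6, at least 7, and 9 or 10 of the genes numbered 827, 724, 1144 and 288, with median depths of 8931, 10075, 11595 and 12618 UMIs. In this order the summed hypoxia genes outside the rule stood at 3162, 3626, 4740.1 and 5523 CPM and glycolysis at 7629, 8065, 9007 and 9610.3 CPM. *Inhba* stood at 98.6, 144, 348 and 475 CPM and *Calb2* at 6.69, 19.6, 58.8 and 93.9 CPM. Each of these 4 was higher the more genes of the rule a cell held. Mesothelial markers ran the other way, at 866, 653, 416 and 308 CPM, as did interferon-stimulated genes, at 10395, 9884, 9586 and 8855 CPM. NF-kB genes were nearly level, at 5286, 5218, 5514 and 5478 CPM, and chemokines had no order, at 11862, 11173, 11477 and 10284 CPM. The order is set by detection of the rule genes, which include the low-oxygen genes *Apln* and *Hilpda*. Depth rose along it as well, and the last class lies within the one before, so the trends are a description. The parts of selection and depth in them were not tested.

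**Figure D4:**
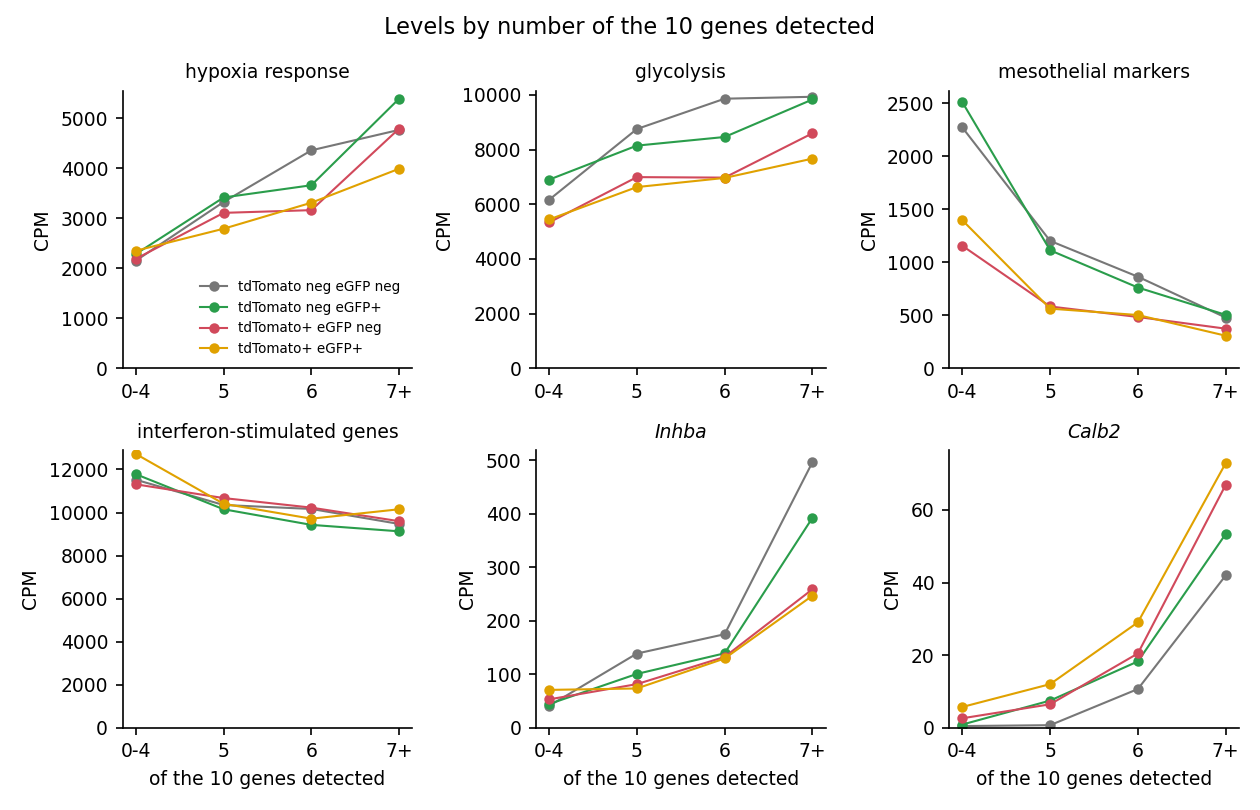
Mean CPM of 4 gene lists and 2 genes, none of them in the rule, in comparison cells (0-4) and members with 5, 6 or at least 7 of the 10 genes detected, with a line per library. Hypoxia and glycolysis genes, *Inhba* and *Calb2* are highest with at least 7 genes and mesothelial markers lowest, in all 4 libraries, while interferon-stimulated genes are lower in members than in comparison cells.

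Within members, hypoxia and glycolysis sums rose together, with Spearman correlations across 376, 757, 1327 and 235 cells of 0.65, 0.65, 0.67 and 0.55 in the 4 libraries. The hypoxia sum had correlations of -0.30, -0.22, -0.30 and -0.31 with the sum of NF-kB genes and chemokines. Both use the cell's total UMIs as denominator, and the cells of a library share its preparation. The parts of these in the correlations were not tested, so the weaker values are given as a description only. The 10 genes with the largest increases were spread over the members. A share of 39.3% (1058 cells) had a UMI of none of them, and 14.7% (395 cells, 13.3 to 16.0) had at least 3, at median depths of 9723 and 11778 UMIs. Of 45 pairs of these genes, 44 had the first gene more often in members with a UMI of the second than in members without, and 39, 44, 41 and 35 did so within the 4 libraries. Members with a UMI of either gene were also deeper, and the part of depth was not tested. *Hdac9* was found in 34.6% of the 231 members with a *Calb2* UMI and 12.0% of the others, at median depths of 11299 and 10294.5 UMIs, and *Tafa2* in 21.2% and 6.70%. The exception was *Hdac9* with *Sprr2e*, found in 11.5% of the 96 members with a *Sprr2e* UMI and 14.0% of the others. These pairs were chosen after their values were seen.

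The sexes of the cells were unevenly represented. Of cells with a UMI of either *Xist* or 1 of 4 Y-linked genes but not both, the *Xist* share was 65.5%, 64.5%, 76.7% and 75.5% in members and 62.2%, 37.6%, 55.9% and 55.9% in comparison cells. The *Xist* share was thus higher in members of 3 libraries, by binomial intervals over cells that do not overlap, and in the tdTomato neg eGFP neg library they overlapped. The cells of a library come from an unstated number of mice, so these intervals cover counting error only and not the spread between mice. Within *Xist*-only cells (1345 members) 91 genes were higher and 227 lower, with medians of 0.75 for hypoxia genes and -1.95 for mesothelial markers. Within Y-only cells (527 members) 74 were higher and 149 lower, with medians of 0.66 and -1.71. Both lists kept their direction in each set of cells. The split by these marks was chosen after values had been looked at.

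Levels in members were compared across the sorted populations along tdTomato. Of 9206 genes with a mean of at least 5 CPM over members, 12 (0.13%) were at least 1 log2 unit higher in members of both tdTomato+ libraries than of both tdTomato neg libraries, and 21 (0.228%) lower. This rule and the genes named from it were chosen after the values were seen. *Cxcl13*, whose promoter drove the reporter, stood at 683, 372, 2230.4 and 1667 CPM in members and 257, 255, 3448 and 1730.1 CPM in comparison cells. Members lay above their comparison cells in both tdTomato neg libraries and below them in the tdTomato+ eGFP neg library, and in the tdTomato+ eGFP+ library the intervals overlapped (1619.8 to 1716 against 1666 to 1797 CPM). The chemokine *Cxcl12* stood at 220.2, 258, 624 and 709 CPM and the neurotrophic factor *Gdnf* at 1.40, 3.23, 11.5 and 11.1 CPM in members, both higher in the tdTomato+ libraries. Among the genes lower there were *Krt8* (85.3, 23.97, 2.38 and 0.719 CPM), *Msln* (48.4, 30.7, 5.12 and 5.39 CPM) and *Sprr2e*. Comparison cells showed the same direction for 11 of the 12 and 19 of the 21 genes, and passed the same threshold for 5 and 11. *Cxcl12* and *Gdnf* were among those that did not, with gaps of 0.11 and 0.07 log2 units in comparison cells. The immunoglobulin gene *Igkc* stood at 737, 383, 13.5 and 2.88 CPM in members and 5.25, 510.2, 29.0 and 4.47 CPM in comparison cells, with 49.6% of its UMIs in members in 1 cell. *Jchain*, also of plasma cells, stood at 44.9, 3.90, 1.01 and 0.360 CPM against 0.433, 32.9, 1.88 and 0 CPM, with 40.3% in 1 cell. Both were high in 1 or both tdTomato neg libraries and the part of such cells was not tested.

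Promoters of the rule genes and of gene lists were searched for motifs as a description. Joint detection of the 10 rule genes in members is set by the rule and is no result. The RefSeq table (GRCm38.p6, while the counts were made on GRCm39) gave 250 bases before and 50 after each start. It held 9 promoters for 7 of the 10 rule genes, and *Ereg*, *Nos2* and *Slc7a2* had no entry. Both strands were searched for the core of the hypoxia response element, which is ACGTG with a first base that may also be G. The words of both strands can overlap, and then both are in capitals. The other motifs were the AP-1 site TGANTCA and the NF-kB consensus. Of all 32851 promoters 43.8% held a hypoxia core, 7.81% an AP-1 site and 4.51% the NF-kB consensus. Among the 9 rule promoters, *Hilpda* (2 starts), *Ptgs2* and *AA467197* held a hypoxia core. An AP-1 site was in those of *Serpinb2* and *Hilpda*, each with 2 starts whose windows overlap, and of *AA467197*, so that 5 of the 9 promoters hold 3 separate sites. None of the 9 held the NF-kB consensus. Shares over the 10 rule genes, the hypoxia list (19 of 24 genes matched), the 107 higher genes (79 matched) and the 167 lower genes (127 matched) are void, as fewer than 80% of each have an entry. Of promoters of the genes compared 63.3% held a hypoxia core. That share is void as well, since 7525 of 9494 genes, fewer than 80%, had an entry. For the glycolysis list (19 of 20 matched, 29 promoters) the hypoxia core was in 79.3% (60.3 to 92.0). It is not compared with the void share. Glycolysis promoters held a median of 21 CG pairs, against 7 over all promoters. The core itself contains CG, and the part of this difference in the share was not tested. For the NF-kB list (16 of 19 matched, 20 promoters) the NF-kB consensus was in 60.0%.

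Sequences are printed for the 3 rule genes with an AP-1 site and, outside the rule, for *Car9* and *Bnip3*, which were higher in members and hold a hypoxia core. Each line gives the 250 bases before the start, 5′ to 3′ on the gene's strand, with matches to the 3 motifs on either strand in capitals. The GRCm38.p6 positions are chr1:107511173-107511422 (+) for *Serpinb2*, chr2:122637637-122637886 (+) for *AA467197*, chr6:29272376-29272625 (+) for *Hilpda*, chr4:43506776-43507025 (+) for *Car9* and chr7:138909507-138909756 (-) for *Bnip3*. Counted back from the start, the AP-1 site begins at -94 in *Serpinb2*, -73 in *AA467197*, -128 in *Hilpda* and -77 in *Car9*. A match is a description of these letters and not a site of binding or a cause.
Serpinb2: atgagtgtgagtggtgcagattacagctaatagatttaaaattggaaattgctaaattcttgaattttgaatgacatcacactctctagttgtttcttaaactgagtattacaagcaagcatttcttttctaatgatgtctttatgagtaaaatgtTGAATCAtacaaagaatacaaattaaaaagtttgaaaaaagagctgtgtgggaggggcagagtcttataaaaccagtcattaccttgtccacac
AA467197: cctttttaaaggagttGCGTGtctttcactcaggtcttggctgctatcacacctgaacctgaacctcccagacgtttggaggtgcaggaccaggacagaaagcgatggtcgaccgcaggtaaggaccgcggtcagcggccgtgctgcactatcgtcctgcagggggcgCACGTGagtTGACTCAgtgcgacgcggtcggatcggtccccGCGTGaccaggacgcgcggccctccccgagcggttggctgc
Hilpda: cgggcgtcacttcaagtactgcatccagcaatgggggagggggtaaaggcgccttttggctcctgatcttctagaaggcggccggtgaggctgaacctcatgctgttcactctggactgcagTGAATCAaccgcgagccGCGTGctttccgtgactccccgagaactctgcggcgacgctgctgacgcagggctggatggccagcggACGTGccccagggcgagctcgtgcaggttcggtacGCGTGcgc
Car9: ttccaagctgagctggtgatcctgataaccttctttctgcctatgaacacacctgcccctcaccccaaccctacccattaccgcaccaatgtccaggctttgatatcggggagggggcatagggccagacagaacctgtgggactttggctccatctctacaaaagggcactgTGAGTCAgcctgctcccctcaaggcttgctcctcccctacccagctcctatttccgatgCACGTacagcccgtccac
Bnip3: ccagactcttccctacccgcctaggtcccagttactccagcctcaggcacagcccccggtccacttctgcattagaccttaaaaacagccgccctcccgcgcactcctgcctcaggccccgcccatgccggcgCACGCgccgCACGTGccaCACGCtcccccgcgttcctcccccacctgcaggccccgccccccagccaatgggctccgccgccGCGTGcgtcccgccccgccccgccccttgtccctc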

How the data were processed

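Single-cell RNA from 4 sorted populations was used, 1 library each (10x 3′ v3.1). The deposited matrices hold raw UMI counts per gene and cell barcode, made by the authors. The submitters' processing notes name Cell Ranger 10.0.0, STAR, Seurat 5.0 and GRCm39, while the matrix headers name Cell Ranger 8.0.0. The deposited barcode and feature lists hold other text, the names of cells and of 33696 genes, per the file headers. UMIs were summed over members and over comparison cells of each library and scaled to counts per 1000000 (CPM), with exact Poisson intervals. Log2 folds used a pseudocount of 1 CPM, were read within a library and averaged over the 4, for genes with a mean of at least 5 CPM. Depth matching weighted comparison cells to the members' distribution of UMIs in steps of 0.1 log10 units. Thinning drew 2000 UMIs per cell without replacement. Libraries are the units, and no test was run, as each population has 1 library and the members were chosen from the same cells. Members and lists were chosen with earlier results of these data known. Named genes were the 10 of the rule, in each list up to 4 called genes with the largest fold, the most abundant and any gene needed to state the list's result, and the 10 largest folds each way among called genes. Of the listed genes, 2 are counted in their lists but not described. Left out were 26 symbols carried by more than 1 feature. Alternatives changed the filters, threshold, comparison cells, pseudocount, scaling, doublets and libraries. Folds, calls and Poisson intervals were checked on simulated Poisson counts. The choice of members, depth matching and thinning were not part of that check. Software was scanpy 1.11.5 for doublet scores, matplotlib 3.10.9 for figures, and scipy 1.17.1, pandas 2.3.3 and numpy 2.4.6 under Python 3.11.15.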

Additional observations from a re-analysis of the deposited data

Results flagged for a closer look

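For 13 of 346 listed genes, members and comparison cells differed in 1 direction in both libraries positive for a reporter and in the opposite direction in both libraries negative for it, with folds at least 1 log2 unit apart. That is 3.76%, against 1.28% of all 9497 genes compared (122). This form was chosen after values had been seen. An earlier form, a fold of at least 0.5 in 1 library and at most -0.5 in another, gave 10 genes, of which 4 are among the 13. The other 6 were *Cxcl12*, *Fcer1g*, *Mitf*, *Pmel*, *Spp1* and *Tnfsf13b*. Without the least distance of 1 unit the form used gives 24 genes (6.94%, against 9.35% of all genes), so the listed genes are not singled out by opposite direction alone. Each population has 1 library, and whether the folds differ between populations was not tested.

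Along eGFP, folds were above 0 in both eGFP+ libraries and below 0 in both eGFP neg libraries for 6 genes, given with their highest and lowest library. These were *Col8a1* (1.92 and -2.19), *Ifngr1* (0.34 and -0.84), *Lifr* (0.43 and -1.10), *Lyz2* (0.48 and -1.87), *Mmp2* (0.34 and -1.64) and *Plxnd1* (0.66 and -0.36). For *Il11* the directions were the other way round (1.05 and -1.12). The lowest fold of all 6 was in the tdTomato neg eGFP neg library.

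Along tdTomato, folds were above 0 in both tdTomato+ libraries and below 0 in both others for *Asns* (1.33 and -0.64), *Ccl8* (0.49 and -1.02) and *Il6ra* (0.28 and -0.90). They were below 0 in both tdTomato+ libraries and above 0 in both others for *Btc* (1.29 and -0.032), *Cd14* (0.86 and -0.18) and *Cxcl13* (1.41 and -0.63). For *Btc* both folds in tdTomato+ libraries were close to 0, as was that of *Cxcl13* in the tdTomato+ eGFP+ library (-0.053).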

How the results depend on the processing

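No paired analysis was possible between sorted populations because each has 1 library, while members and comparison cells were read within each library with no test. The share of members, 12.8% of gated cells, followed the threshold and the depth: it was 17.4% with at least 4 of the 10 genes, 8.85% with at least 6 and 4.64% after thinning. It was 13.8% with at least 10 collagen UMIs and 13.2% with the highest doublet scores removed, both of which also change the number of gated cells. Leaving out 1 library at a time gave 8.31% to 20.6%.

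The 107 genes higher in members became 410 against matrix-high cells and 71 at a pseudocount of 5 CPM. Leaving out a library gave 103 to 121. The 167 lower genes became 442 against all other gated cells (with 77 higher), 596 against matrix-high cells, 88 at the pseudocount of 5, 278 with no filter on low values, where more genes were compared, and 281 with UMIs pooled over libraries. Leaving out a library gave 115 to 212. Of 53 calls of named genes, 32 held against matrix-high cells, 34 in cells with Y-linked UMIs alone, and 49 to 53 when a library was left out. The cause of these changes was not tested.

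A reversal here is a change of sign of a called gene or of a list median at least 1 log2 unit from 0. Medians closer to 0 also change sign under some alternatives, such as NF-kB genes at matched depth (0.05) and interferon-stimulated genes against matrix-high cells (0.89). Against matrix-high cells 16 of the 107 higher and 76 of the 167 lower genes changed sign, among them 12 of 14 mesothelial markers. Of the results tracked under each alternative, the direction reversed for the median of mesothelial (1.66) and melanoma markers (0.42) and for *Aqp5* (1.51), *Dct* (0.52), *Krt18* (0.72), *Lox* (-0.43), *Lrrn4* (1.22), *Mlana* (0.31), *Mmp3* (-0.24), *Muc16* (0.24), *Timp1* (-0.053), *Tnfaip6* (-0.49) and *Upk3b* (1.66). The same held for *Krt19* (3.04), which was compared under this alternative and matched depth only. Cells with a mark of 1 sex were compared after the data had been seen. With Y-linked UMIs alone, the melanoma median (0.20), *Inmt* (0.26), *Lbp* (0.73) and *Pi16* (0.061) reversed, and the cause was not tested. With *Xist* alone none did. At matched depth none of the 107 higher or 167 lower genes changed sign, and 73 of 94 gene folds moved by less than the spread between libraries.

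Depth limits what can be said of genes near 5 CPM, where a library of 235 members gives few UMIs, and of any single cell's membership.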
